A study of Homo sapiens with 34 samples.

Results

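The genes described here are 39 genes of the integrated stress response and of amino acid supply, chosen by name. They comprise 9 transcription factors and regulators, 10 enzymes of amino acid and one-carbon metabolism, 7 amino acid transporters, 11 cytosolic tRNA synthetases, and STC2 and VLDLR. Synthetases are named by the older symbols without a final 1. Their RNA was followed in 17 groups of edited RPE-1 cells, with 2 libraries a group. Of 29324 genes with an intron in the splicing table, 12081 had enough reads to be tested, and 35 of the 39 genes were among them. The remaining 4 were not tested. CEBPB has no intron, CBS has no intron event in the table, MARS has introns with no reads there, and ALDH1L2 was below the count minimum.

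The libraries were stranded and ribosome-depleted total RNA from hTERT RPE-1, a telomerase-immortalised human retinal pigment epithelium line. Cells carried Cas9 and Cas12a with a hybrid guide RNA (hgRNA), which joins a Cas9 guide to a Cas12a guide so that a pair of cuts removes the DNA between them. All groups, controls included, received lentivirus at an estimated multiplicity below 1, were kept in puromycin at 20 µg/ml for 72 h and were harvested 4 days later. The 2 control hgRNAs cut between genes (4 libraries). Deletions within introns were made in DDX5, FNBP4 and HNRNPD, and deletions across a PTC exon, one that brings a premature termination codon, were made in DDX17, HDAC7 and FNBP4. Each deletion had 2 hgRNAs (4 libraries) apart from HNRNPD, which had 1 (2 libraries). DDX5, DDX17, FNBP4 and HDAC7 were also each targeted for knockout by 1 hgRNA with an exonic Cas9 guide and an intergenic Cas12a guide (2 libraries each). DDX5 and DDX17 encode RNA helicases, HDAC7 a class IIa histone deacetylase, HNRNPD an RNA-binding protein of AU-rich elements, and FNBP4 a formin-binding protein. The labels do not say that clones were picked, and each library reports on a cell population after editing.

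In the integrated stress response, kinases that sense amino acid shortage, misfolded proteins, viral RNA or heme lack phosphorylate the translation factor eIF2. General translation then slows while translation of ATF4 mRNA goes up. The ATF4 protein binds DNA with C/EBP partners and switches on genes of amino acid uptake, serine, asparagine and one-carbon synthesis, and tRNA charging, together with regulators such as DDIT3 and TRIB3. Because much of the control of ATF4 is on its translation, its mRNA level need not follow its protein, and protein was not measured here.

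The guides bear on which groups are independent. The following are the Cas9 guides that the labels give to a pair of groups, in capitals, and the other guides of the FNBP4 PTC exon and HNRNPD deletions, the groups in which most falls below were called, in lower case.
FNBP4 intron deletion hgRNA 2 and FNBP4 PTC exon deletion hgRNA 3, Cas9 guide: TGTGAATTCCACGGTCCAAG
FNBP4 PTC exon deletion hgRNA 3, Cas12a guide: tccaatgtgtggctggccaaact
FNBP4 PTC exon deletion hgRNA 4, Cas9 guide: caactactcctgattaacct
FNBP4 PTC exon deletion hgRNA 4, Cas12a guide: taagtctcatctgttggagtgag
HDAC7 PTC exon deletion hgRNA 1 and hgRNA 2, Cas9 guide: GTGGAAGACAGTGGTGCAGA
FNBP4 knockout and HDAC7 knockout, Cas9 guide: GAAGTCTGGGATGAGAACAC
HNRNPD intron deletion hgRNA 1, Cas9 guide: ataagggtagggtgtatgtg
HNRNPD intron deletion hgRNA 1, Cas12a guide: gaacaaattgtcaaccacaatca
A Cas9 cut of the FNBP4 PTC exon deletion was thus also made in 1 of the FNBP4 intron deletion hgRNAs. The labels of the HDAC7 knockout repeat the FNBP4 knockout guide in both places, with a Cas12a guide of 20 bases where all others have 23, so the guide in that group is not certain from the labels.

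ATF4 dimers with C/EBP proteins are known to bind elements of the form TGATGNAA, in which N is any base. The 300 bases around the start site (250 before it and 50 after) were read from RefSeq on GRCh38.p14 for 34 of the 39 genes. TGATGNAA was present on either strand in 11 of these 34 (32.4%), against 1270 of all 35116 promoters of that length (3.62%). By role these were 6 synthetases, 2 transporters, 2 regulators and 1 enzyme. Because the genes were chosen by name for this response, the higher share describes the list and is not a test. The 30 bases around each match follow, on the strand on which the motif reads 5′ to 3′, with the motif in capitals, since these are the letters that the genes share.
ASNS, chr7:97872458-97872487, minus strand: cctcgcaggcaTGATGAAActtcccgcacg
SLC3A2, chr11:62881719-62881748, minus strand: ggagcTGATGTAAggagtcctgcacattac
SLC7A1, chr13:29595663-29595692, minus strand: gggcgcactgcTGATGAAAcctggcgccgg
IARS, chr9:92293692-92293721, plus strand: gcgcacggaggTGATGCAAcgcgctgaaaa
AARS, chr16:70289675-70289704, plus strand: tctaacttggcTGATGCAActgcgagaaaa
TARS, chr5:33440956-33440985, minus strand: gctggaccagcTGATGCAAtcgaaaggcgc
NARS, chr18:57621804-57621833, minus strand: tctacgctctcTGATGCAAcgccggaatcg
CARS, chr11:3057407-3057436, plus strand: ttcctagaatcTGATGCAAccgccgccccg
MARS, chr12:57488053-57488082, minus strand: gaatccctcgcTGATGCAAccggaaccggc
CHAC1, chr15:40953251-40953280, minus strand: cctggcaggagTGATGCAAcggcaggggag
ATF3, chr1:212565205-212565234, plus strand: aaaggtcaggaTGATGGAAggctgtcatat
All 6 synthetase matches and the CHAC1 match read TGATGCAA, while ASNS and SLC7A1 read TGATGAAA. A match describes letters only, and its absence in a window of this length says nothing about binding elsewhere. Of these genes, ASNS, SLC3A2, SLC7A1, IARS and NARS were called both higher and lower in different groups below, and CARS in none.

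Levels below are in CPM, here the reads across spliced exon junctions of a gene per 1000000 such reads in the library after TMM scaling. Libraries held 12353936 to 20233610 junction reads. A gene was called higher or lower when limma, fitted on all 12081 genes and all 34 libraries, gave an adjusted p (Benjamini-Hochberg) under 0.05. The 10 comparisons against controls share the same 4 control libraries. Each p rests on the spread between libraries of the same hgRNA. It does not measure the spread between hgRNAs of an edit. In bulk RNA, fewer cells of a kind and less RNA per cell cannot be told apart.

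Some libraries stood apart over all genes. On the first principal component (32.9% of variance) replicate 2 of control hgRNA 1, DDX17 hgRNA 1 and HDAC7 hgRNA 1 lay at 17.3, 44.5 and 41.7, and replicate 1 of FNBP4 PTC exon deletion hgRNA 3 at -44.8. Knockout libraries numbered 1 lay apart on the third component, at 21.8 to 25.5, and had 1.91% to 2.38% of reads across exon-intron junctions, against 3.76% to 4.48% in those numbered 2 and 3.66% to 5.90% in the other 26 libraries. RNA of the edited gene fell in the DDX5 knockout (log2 change -1.88, adjusted p = 8.3e-07) and in the DDX17 knockout (-0.44, 0.0133), was not called in the FNBP4 and HDAC7 knockouts, fell in the DDX5 intron deletion (-0.44, 0.0441, all 4 libraries below the controls), and rose in the FNBP4 PTC exon deletion (1.63, 1.26e-05). RNA of the edited gene was not called in the HNRNPD (0.29, 0.188), DDX17 (0.035, 0.866), HDAC7 (-0.27, 0.418) and FNBP4 intron deletions (0.34, 0.481). RNA level alone does not test a frameshift. Of the retinal pigment epithelium markers, MITF (9.14 to 24.1 CPM), KRT8 (460 to 982) and KRT18 were present, whereas TYR had no reads and RLBP1, BEST1 and RPE65 stayed at or below 0.368. Markers of other cell types were near 0, the highest being PTPRC at 1.096 CPM. Of 6 retinal pigment epithelium markers tested 3 were higher and none lower in the FNBP4 PTC exon deletion (MITF 0.65, OTX2 0.73 and SERPINF1 2.40, list median 0.49) and in the HNRNPD deletion (OTX2 0.81, SERPINF1 1.77 and KRT8 0.53, median 0.66). KRT8 was also higher in the DDX5, FNBP4 and HDAC7 knockouts (0.79, 0.60 and 0.57). SERPINF1 was near the floor, with a median of 0.262 CPM and a highest of 2.47. Summed over 10 of these markers libraries had 904 to 1056 CPM in controls, 863 to 1063 in the FNBP4 PTC exon deletion, 1157 to 1185 in HNRNPD and 1062 to 1701 in the knockouts. These sums are mostly KRT8 and KRT18, with medians of 553 and 453 CPM beside 16.9 for MITF, and say little about the other markers. Over 9 markers of other cell types the sums were 0.556 to 0.971 in controls, 1.01 to 1.88 in the FNBP4 PTC exon deletion, where PECAM1 was higher (1.63), and 1.73 to 1.92 in HNRNPD. The part of these marker changes in the results below was not tested.

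In the control groups the genes differed widely in level per length. The authors' deposited table gave the highest control RPKM (reads scaled for gene length and depth) to STC2, a secreted glycoprotein, at 541.3. In the authors' deposited table it was followed by SLC38A2 at 281.47, SLC3A2 at 131.44 and ATF4 at 121.01 RPKM. Enzymes and synthetases filled the middle of the authors' deposited table, with PHGDH at 95.6, GARS at 90.47, IARS at 61.5 and ASNS at 18.15 RPKM. The stress regulators DDIT3, TRIB3, CHAC1 and ATF3 stood at 13.19, 7.26, 3.09 and 1.53 RPKM in the authors' deposited table, and ALDH1L2 at 0.08.

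Against controls the genes moved in opposite directions in the knockouts and in a pair of deletions. In the FNBP4 PTC exon deletion 17 of 35 fell and 1 rose, where 13% of all genes tested fell and 13.9% rose. The median log2 change of the 35 was -0.32, beside 0.01 for all genes. In the HNRNPD deletion 10 fell and none rose, where 4.32% of all genes fell and 4.55% rose, with a median of -0.28 beside 0.02. The shares called in either direction over all genes were 26.9% and 8.87% there. The DDX5 intron deletion had 7 higher and 2 lower (7.22% and 9.68% of all genes), so that 25.7% of the 35 were called beside 16.9% of all genes. Against control hgRNA 2 alone none was higher and 1 lower there, and leaving out 1 library at a time gave 3 to 9 called genes. The authors' deposited table, over all 39 genes and by hgRNA, gave the DDX5 deletion more lower than higher calls. It had 2 higher and 3 lower for hgRNA 1 (8.29% of all its genes called) and 1 and 3 for hgRNA 2 (5.51%). Median log2 changes of the 39 there were 0.19 and 0.12. The other deletions moved few of the genes. The DDX17 PTC exon deletion had 2 higher and 2 lower, where 2.27% and 2.72% of all genes were, 4.98% in all. The FNBP4 intron deletion had none higher and 1 lower (1.27% and 2.25%, 3.53% in all). The HDAC7 PTC exon deletion had 1 higher and none lower (1.04% and 0.861%, 1.9% in all). A fit on only the libraries compared called none of the 35 in the DDX17 and HDAC7 PTC exon deletions.

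Genes were called higher in all 4 knockouts. There were 10 in the DDX5 knockout (5.89% of all genes were higher there), 11 in the DDX17 knockout (0.762%), 15 in the FNBP4 knockout (4.54%) and 15 in the HDAC7 knockout (3.43%). None was lower in the DDX5, DDX17 and HDAC7 knockouts (4.11%, 1% and 3.07% of all genes) and 2 were lower in the FNBP4 knockout (3.67%), namely DDIT4 and DDIT3. In either direction 9.99%, 1.76%, 8.2% and 6.5% of all genes were called in the DDX5, DDX17, FNBP4 and HDAC7 knockouts. Median log2 changes of the 35 were 0.21, 0.28, 0.36 and 0.29, beside -0.03, -0.01, -0.01 and -0.02 for all genes. These counts depended on the knockout libraries numbered 1, which have the low share of exon-intron reads given above. With all of those left out, an alternative chosen after seeing the data, 2, 5, 4 and 2 genes stayed called in the DDX5, DDX17, FNBP4 and HDAC7 knockouts. Without its own replicate 1 alone, each of these knockouts called 1, 0, 4 and 0 genes, with the remaining library assumed to vary like the other groups. A fit on only the libraries compared called 4, 2, 7 and 5. What part the exon-intron read share has in these calls was not tested.

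**Figure D1:**
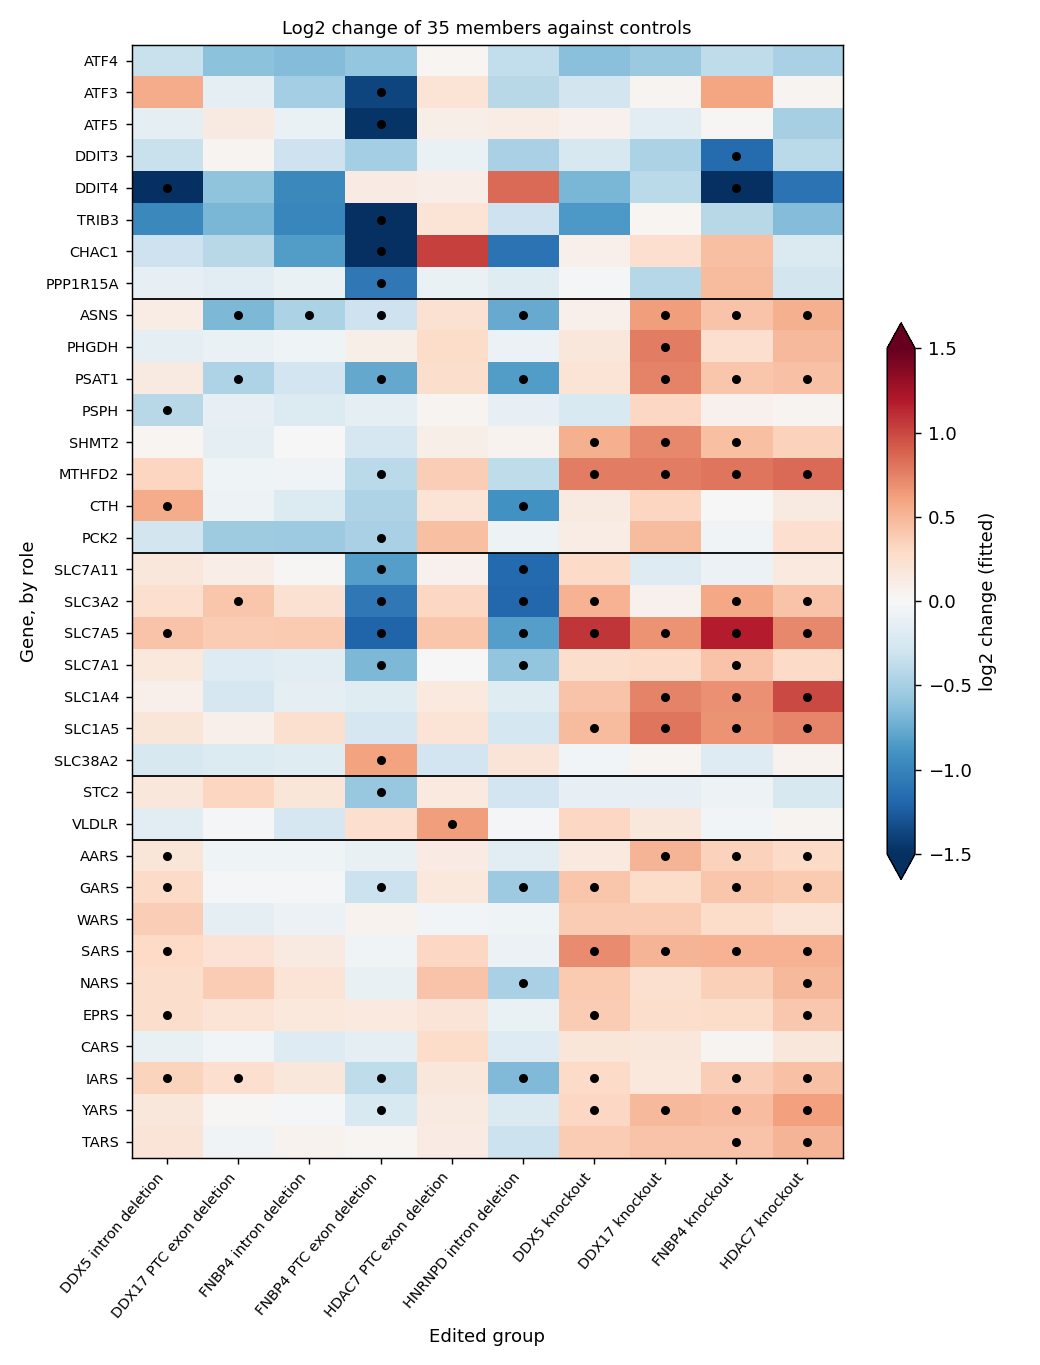
Fitted log2 change against the 4 control libraries of the 35 tested genes (vertical axis, lines separating roles) in 10 edited groups (horizontal axis). Colour runs from -1.5 (lower) to 1.5 (higher) and is capped there, and a black dot marks a called gene, such as SLC7A5 at -1.21 in the FNBP4 PTC exon deletion and 1.18 in the FNBP4 knockout.

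Over the 10 comparisons 32 of the 35 genes were called at least once, and WARS, CARS and ATF4 in none. Called higher and never lower were 10 genes, among them PHGDH, SHMT2, SLC1A4, SLC1A5, AARS, SARS and TARS. Called lower and never higher were 11, and these held all 7 regulators that were called (ATF3, ATF5, DDIT3, DDIT4, TRIB3, CHAC1 and PPP1R15A). Another 11 moved both ways, among them ASNS, PSAT1, MTHFD2, SLC3A2, SLC7A5, IARS, GARS and YARS. These counts over the 10 comparisons were not made for all genes tested, of which up to 26.9% were called in a single comparison. They therefore do not set the 35 genes apart from other genes.

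Among amino acid transporters SLC7A5 was called in 7 of the 10 comparisons. SLC7A5 (LAT1, chr16:87830023-87869488, minus strand, GRCh38) exchanges large neutral amino acids across the plasma membrane as a heterodimer with SLC3A2 (CD98 heavy chain, chr11:62856102-62888875, plus strand). In control libraries SLC7A5 stood at 216.3, 186, 216.1 and 199.9 CPM. The 4 libraries of the FNBP4 PTC exon deletion had 116.7, 85.4, 73.9 and 83.6, and the HNRNPD deletion had 121 and 110.02, all below every control. Knockout libraries had 486 and 381 for DDX5, 342 and 309 for DDX17, 494 and 436 for FNBP4, and 372 and 306 for HDAC7, all above every control. The DDX5 deletion was also above them, at 273, 286, 262 and 279. So were the FNBP4 intron deletion (269, 288, 247 and 268) and the HDAC7 deletion (313, 273, 236 and 273), neither of which was called.

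SLC7A5 was thus 2.31-fold lower in the FNBP4 PTC exon deletion (89.9 ± 18.6 against 205 ± 14.4 CPM, SD, n = 4 each), a log2 change of -1.21 (SE 0.12, adjusted p = 1.94e-07). In the HNRNPD deletion the log2 change was -0.83 (SE 0.14, adjusted p = 0.000665). It rose by 1.18 in the FNBP4 knockout (465 ± 40.7, n = 2, adjusted p = 1.32e-05), 1.07 in the DDX5 knockout (434 ± 74.3, 5.01e-05), 0.72 in the HDAC7 knockout (0.00377) and 0.67 in the DDX17 knockout (0.0134). The smaller rise in the DDX5 deletion (0.43, adjusted p = 0.0124) missed the threshold without replicate 2 of control hgRNA 1 (0.36, 0.0843) or of DDX5 hgRNA 2 (0.40, 0.0553). The calls in the FNBP4 PTC exon deletion, HNRNPD deletion, and DDX5 and FNBP4 knockouts held in every fit that left out 1 library. In the DDX17 knockout the call was lost without its replicate 1 (0.59, adjusted p = 0.291), its replicate 2 (0.74, 0.061) or replicate 2 of control hgRNA 1 (0.61, 0.0567), and in the HDAC7 knockout without its replicate 1 (0.58, 0.152). Ordered by mean, the groups ran from FNBP4 knockout at 465 and DDX5 knockout at 434, whose libraries overlap, through the HDAC7 and DDX17 knockouts and most deletions, down past the controls (208 and 201) to HNRNPD at 115 and FNBP4 PTC hgRNAs 3 and 4 at 101 and 78.8.

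**Figure D2:**
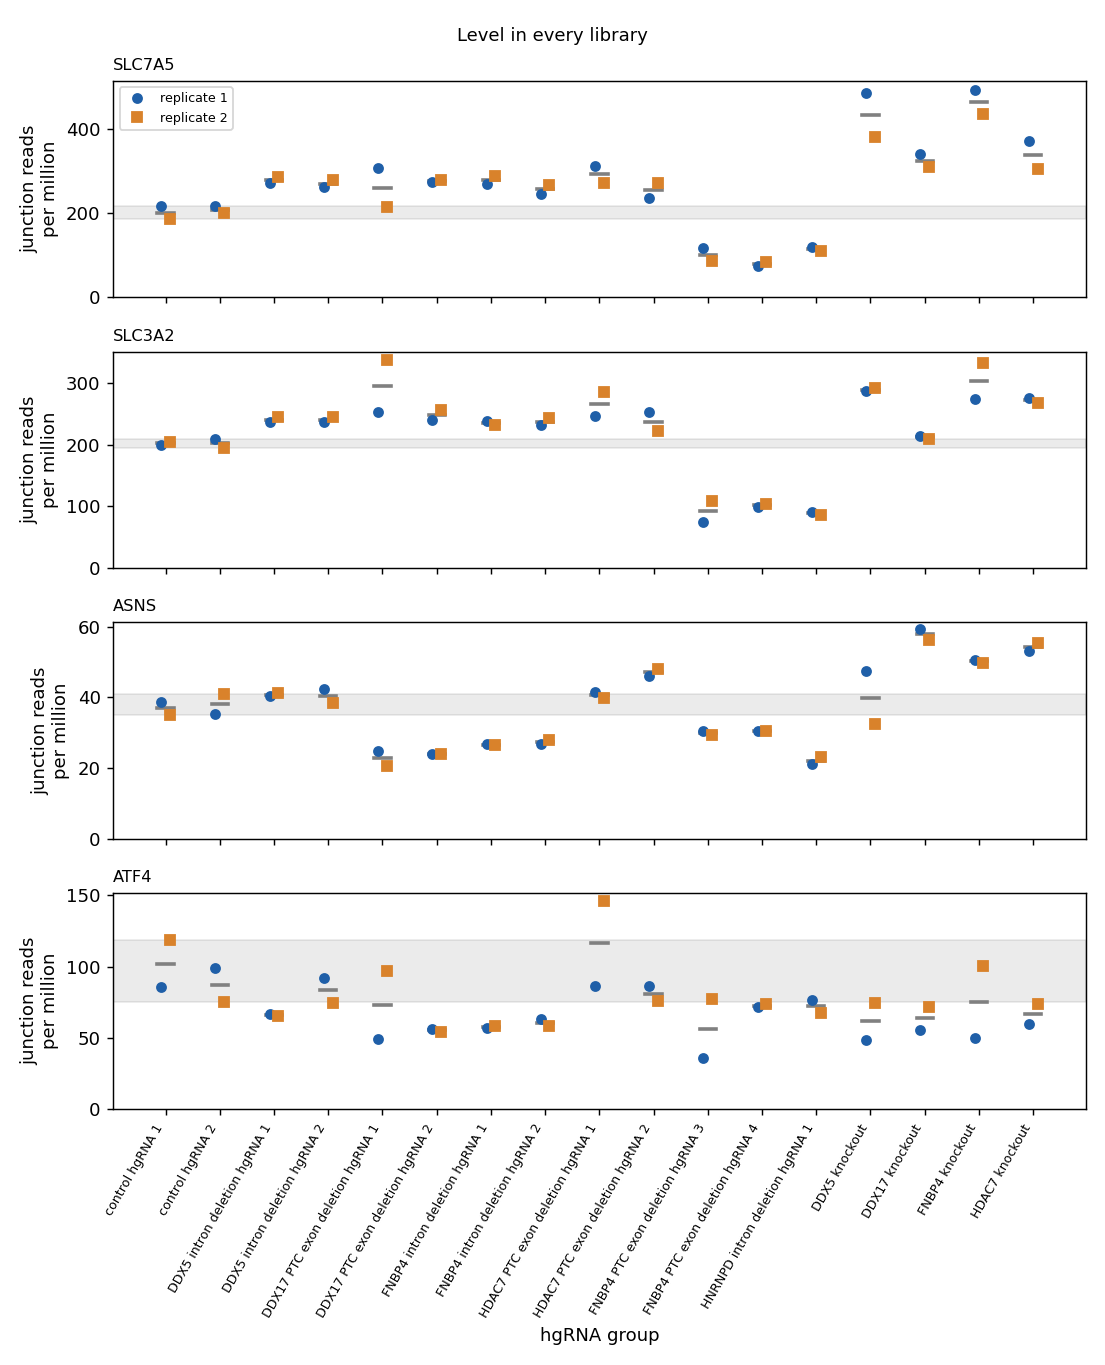
Junction-read CPM (vertical axes) of SLC7A5, SLC3A2, ASNS and ATF4 in each of the 34 libraries by hgRNA group (horizontal axis). Blue circles are replicate 1, orange squares replicate 2, grey bars the group mean and the grey band the range of the 4 control libraries. SLC7A5 in the 4 FNBP4 PTC exon deletion libraries sits at 73.9 to 116.7, under the control band.

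SLC3A2, the partner chain, had 199, 205, 209.5 and 194.5 CPM in controls. It had 74.3, 108.9, 99.0 and 104 in the FNBP4 PTC exon deletion and 91.3 and 86.5 in the HNRNPD deletion. It was 2.11-fold lower in the first (log2 change -1.08, SE 0.10, adjusted p = 1.62e-07) and 2.27-fold lower in the second (-1.18, SE 0.13, 4.19e-06), with no overlap with the controls. The pair of LAT1 chains therefore stood below controls in the same 6 libraries. In the DDX5, FNBP4 and HDAC7 knockouts SLC3A2 rose by 0.52 (adjusted p = 0.00916), 0.58 (0.00434) and 0.43 (0.039) on the log2 scale, with 288 and 291, 274 and 333, and 277 and 268 CPM. In the DDX17 knockout it had 215 and 209.6 and was not called. The DDX5, FNBP4 intron and HDAC7 deletions were not called either, though all their libraries, at 222 to 286 CPM, stood above every control. SLC3A2 was called higher in the DDX17 deletion (0.41, adjusted p = 0.0172), where replicate 2 of hgRNA 1 had 338 beside 253, 239.6 and 256, but 5 of the 8 fits that left out 1 library lost that call. Without replicate 1 or 2 of the DDX5 knockout its rise there had adjusted p of 0.123 and 0.0579, and without replicate 2 of the FNBP4 knockout its rise there had 0.0949. In the HDAC7 knockout all 6 such fits lost the call.

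SLC7A11 (xCT) also pairs with SLC3A2 and imports cystine for glutathione synthesis. It fell in the FNBP4 PTC exon deletion, at 26.7, 24.8, 25.2 and 22.5 CPM against 43, 35.8, 46.6 and 52.3 in controls (log2 change -0.83, SE 0.11, adjusted p = 1.8e-05). In the HNRNPD deletion it stood at 21.2 and 17.9 (-1.17, SE 0.15, 2.89e-05). Its knockout libraries, at 37.2 to 55.9, were not called. SLC7A1, a cationic amino acid transporter, fell in both deletions (-0.68 and -0.59) and was called higher in the FNBP4 knockout (0.42, adjusted p = 0.0366). Its DDX5, DDX17 and HDAC7 knockout values (0.26, 0.28 and 0.29) were not called (adjusted p = 0.186, 0.281 and 0.179), although all 8 knockout libraries, at 74.3 to 92.2 CPM, stood above the highest control at 73.4. The authors' deposited table had SLC7A1 higher in all 4 knockouts, by 0.54, 0.61, 0.64 and 0.52 on the log2 scale, each with an FDR below 0.05. Whether the 4 knockouts differ from each other in SLC7A1 was not tested.

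Next came the sodium-coupled neutral amino acid transporters. SLC38A2 (SNAT2) was the only one of the 35 genes called higher in the FNBP4 PTC exon deletion, with 1081, 1217, 1311 and 1188 CPM against 865, 703, 786 and 815 (0.60, SE 0.10, adjusted p = 0.000132). The lowest of those libraries lay above the highest control. SLC1A5 (ASCT2), a glutamine carrier, had 79.9, 76.9, 76.1 and 71.8 in controls and was called higher in all 4 knockouts, with log2 changes of 0.47, 0.80, 0.67 and 0.73 in DDX5, DDX17, FNBP4 and HDAC7. Its 8 knockout libraries had a lowest value of 95.6, a median of 118.9 and a highest of 146, all above the controls. SLC1A4, which carries serine and alanine, rose in the DDX17, FNBP4 and HDAC7 knockouts by 0.74, 0.68 and 0.99.

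Next came the enzymes of serine, asparagine and one-carbon synthesis. ASNS, the asparagine synthetase of textbook amino acid response (chr7:97852118-97872542, minus strand), had 38.8, 35, 35.2 and 40.9 CPM in controls. It was called in 7 of 10 comparisons, lower in 4 and higher in 3. The DDX17 deletion had 24.9, 20.6, 24 and 23.8 (log2 change -0.68, SE 0.10, adjusted p = 0.000181) and the FNBP4 intron deletion 26.7, 26.5, 26.9 and 28 (-0.47, SE 0.10, 0.00641), all below the controls. In the HNRNPD deletion ASNS had 21.1 and 23.2 (-0.76, adjusted p = 0.000368). These 3 calls held in every fit that left out 1 library. The FNBP4 intron deletion call was lost against control hgRNA 2 alone (-0.49, adjusted p = 0.0646) and the DDX17 deletion call in a fit on only the libraries compared (-0.68, 0.0838). The call in the FNBP4 PTC exon deletion, at 30.6, 29.3, 30.6 and 30.5 (-0.31, adjusted p = 0.0215), was lost without replicate 1 of control hgRNA 1 (-0.27, 0.0679), replicate 2 of control hgRNA 2 (-0.25, 0.0917) or replicate 2 of FNBP4 hgRNA 4 (-0.31, 0.0563).

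Among knockouts ASNS rose in DDX17 (59.4 and 56.4 CPM, 0.63, adjusted p = 0.004), HDAC7 (53.1 and 55.5, 0.54, 0.00669) and FNBP4 (50.6 and 49.8, 0.42, 0.0222). The DDX5 knockout libraries disagreed, with 47.5 and 32.4 on either side of the controls, and ASNS was not called there. Without replicate 1 the DDX17, HDAC7 and FNBP4 knockout values were 0.59 (adjusted p = 0.144), 0.57 (0.0932) and 0.42 (0.189). With all knockout libraries numbered 1 left out together they were 0.60 (0.0332), 0.58 (0.0377) and 0.42 (0.0853).

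PSAT1, the transaminase of serine synthesis (chr9:78297143-78330093, plus strand), had 51.9, 53.5, 50.8 and 49.3 CPM in controls. It fell in the FNBP4 PTC exon deletion (35.7, 29.3, 25.6 and 30.7, log2 change -0.77, SE 0.11, adjusted p = 1.79e-05) and the HNRNPD deletion (29.1 and 28.4, -0.84, 0.000271). The DDX17 deletion, at 39.3, 37.3, 38 and 34.7, was also below all controls (-0.46, adjusted p = 0.0105), a call lost without replicate 1 of control hgRNA 2 (-0.45, 0.0548) or replicate 2 of DDX17 hgRNA 2 (-0.43, 0.078). PSAT1 rose in the DDX17, HDAC7 and FNBP4 knockouts by 0.74, 0.44 and 0.41, with 94.5 and 78.2, 80.9 and 60.4, and 72.4 and 64.5. Replicate 1 was the higher library in each of the 4 knockouts, the DDX5 knockout (67.7 and 51.9) included. The DDX17 knockout call was lost without its replicate 1 (0.60, adjusted p = 0.162), and the FNBP4 and HDAC7 calls in 6 and 5 of the 6 fits that left out 1 library.

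MTHFD2, a mitochondrial folate enzyme (chr2:74198562-74217565, plus strand), had 108.9, 112, 111 and 119.6 CPM in controls. All 8 knockout libraries were above them, with a lowest of 179, a median of 197 and a highest of 217. The log2 changes were 0.76, 0.77, 0.80 and 0.85 in DDX5, DDX17, FNBP4 and HDAC7, each called. Without replicate 1 the DDX5, DDX17 and HDAC7 calls were lost (0.67, adjusted p = 0.0732, then 0.67, 0.204, then 0.75, 0.0655), and the FNBP4 call held in every fit without 1 library. The DDX5 deletion, at 147, 145, 142 and 130, lay above all controls and HNRNPD, at 87.5 and 86.0, below them, with neither called. In the FNBP4 PTC exon deletion 3 libraries had 76.7, 76.5 and 73.7 while replicate 1 of hgRNA 3 had 124, above the controls. Its call there (-0.40, adjusted p = 0.0137) was lost without replicate 2 of hgRNA 3 (-0.22, 0.0827).

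SHMT2, which feeds the same folate pathway in mitochondria, rose in the DDX5, DDX17 and FNBP4 knockouts (0.53, 0.72 and 0.45), and PHGDH, the first enzyme of serine synthesis, in the DDX17 knockout (0.77, adjusted p = 0.0314). PSPH, which releases serine, fell in the DDX5 deletion (-0.41, 0.0121). CTH, of the transsulfuration pathway, rose in that deletion (0.56, 0.0166) and fell in HNRNPD (-0.91, SE 0.25, 0.0224). PCK2, the mitochondrial phosphoenolpyruvate carboxykinase, fell in the FNBP4 PTC exon deletion (-0.49, 0.0356). By role, 4 of 8 enzymes fell there and 3 in HNRNPD, while 2, 5, 4 and 3 rose in the DDX5, DDX17, FNBP4 and HDAC7 knockouts and none fell.

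Synthetases, which load amino acids onto their tRNAs, changed by at most 0.70 on the log2 scale where called. IARS, for isoleucine (chr9:92210207-92293756, minus strand), had 509.6, 490.1, 522 and 533 CPM in controls. The FNBP4 PTC exon deletion had 422, 382, 390.3 and 386 (log2 change -0.38, SE 0.07, adjusted p = 0.000619) and HNRNPD 327 and 319.6 (-0.67, SE 0.09, 5.06e-05). The DDX5 deletion was above the controls at 689, 684, 617 and 604 (0.33, 0.00277). These 3 calls held in every fit without 1 library, and the DDX5 deletion call was lost against control hgRNA 2 alone (0.30, adjusted p = 0.0528) and with GC and length trends removed (0.24, 0.0635). The FNBP4 intron and HDAC7 deletions were not called, though all their IARS libraries, at 549 to 612 CPM, were above the controls. IARS also rose in the HDAC7 (726 and 669, 0.44, adjusted p = 0.00482), FNBP4 (677 and 644, 0.36, 0.0124) and DDX5 knockouts (674 and 582, 0.29, 0.0435). In the DDX17 deletion its rise (0.25, 0.0426) was lost in 7 of 8 such fits, and in the DDX5 knockout in 5 of 6. Without replicate 1 the FNBP4 and HDAC7 knockout values were 0.33 (adjusted p = 0.188) and 0.38 (0.152).

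GARS, for glycine (chr7:30594681-30634033, plus strand), had 405, 377, 419.5 and 415 CPM in controls. It fell in HNRNPD (281 and 272, log2 change -0.55, adjusted p = 0.00109) and in the FNBP4 PTC exon deletion (-0.32, 0.00582), where hgRNA 3 replicate 1 at 382 overlapped the controls and the other libraries each stood at 305. It rose in the DDX5 deletion (491, 493, 495 and 494, 0.29, 0.0176) and in the DDX5, FNBP4 and HDAC7 knockouts (587 and 492, 552 and 526, and 548 and 509). In the DDX5 deletion 6 of 8 fits without 1 library lost the call, and without their replicate 1 the 3 knockouts had adjusted p of 0.323, 0.162 and 0.289. GARS was not called in the DDX17 knockout, whose libraries had 499 and 479, above all controls.

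YARS, for tyrosine (chr1:32775237-32818153, minus strand), had controls close together at 211, 207, 209 and 215 CPM. It was called higher in all 4 knockouts, at 268 and 256, 309 and 282, 288 and 293, and 344 and 302, with log2 changes of 0.31, 0.49, 0.46 and 0.61 in DDX5, DDX17, FNBP4 and HDAC7. The FNBP4 knockout call held in every fit without 1 library and was lost in a fit on only the libraries compared (0.46, adjusted p = 0.0617). The HDAC7 value without its replicate 1 was 0.52 (adjusted p = 0.0501) and the DDX17 value 0.42 (0.25), and all 6 fits without 1 library lost the DDX5 call. In the FNBP4 PTC exon deletion YARS was lower (195.1, 172, 172 and 178, -0.23, 0.0269), a call lost in 6 of 8 fits without 1 library.

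SARS, for serine (chr1:109213918-109238169, plus strand), had 246, 245, 240.1 and 262 CPM in controls and was called higher in 5 comparisons. Its knockout values were 439 and 372 for DDX5 (log2 change 0.70, adjusted p = 0.000632), 365 and 339 for DDX17 (0.50, 0.0296), 374 and 341 for FNBP4 (0.53, 0.00697) and 396 and 322 for HDAC7 (0.53, 0.0103). Without their replicate 1 the DDX5, FNBP4 and HDAC7 values were 0.59 (0.0617), 0.46 (0.163) and 0.37 (0.307), and 5 of 6 fits without 1 library lost the DDX17 call. In the DDX5 deletion SARS had 319.7, 309, 304 and 292 (0.30, 0.0336), a call lost in 7 of 8 such fits.

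AARS, for alanine (chr16:70252295-70289543, minus strand), had 278, 271, 273 and 272 CPM in controls, the narrowest spread of these genes. It rose in the DDX17 (404 and 375, log2 change 0.51, SE 0.08, adjusted p = 0.000592), FNBP4 (354 and 342, 0.35, 0.00497) and HDAC7 knockouts (346 and 324, 0.29, 0.0227). The DDX5 knockout, at 318 and 286, was not called. Its rise in the DDX5 deletion (0.18, adjusted p = 0.0408) was lost in all 8 fits without 1 library, and the DDX17, FNBP4 and HDAC7 knockout calls without their replicate 1 (0.45, 0.061, then 0.33, 0.106, then 0.24, 0.316). EPRS, for glutamate and proline, rose in the DDX5 deletion and the DDX5 and HDAC7 knockouts (0.26, 0.38 and 0.41), and TARS, for threonine, in the FNBP4 and HDAC7 knockouts (0.43 and 0.51).

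Of the 10 synthetases tested, 5, 3, 6 and 8 rose in the DDX5, DDX17, FNBP4 and HDAC7 knockouts with medians of 0.38, 0.33, 0.36 and 0.43, and none fell. In the DDX5 deletion 5 rose with a median of 0.27. In HNRNPD (IARS, GARS and NARS) and in the FNBP4 PTC exon deletion (IARS, GARS and YARS) 3 fell.

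In junction reads regulators fell or were not called, and none of the 8 tested was called higher in any of the 10 comparisons. The authors' deposited table, at an FDR under 0.05, had CHAC1 higher for HDAC7 PTC exon hgRNA 1 (4 genes higher, none lower). It also called PPP1R15A and DDIT4 in the FNBP4 knockout, where 16 genes were higher and 1 lower. For HNRNPD it called ATF3, DDIT4 and CHAC1, where 1 gene was higher and 13 lower. ATF4 itself (chr22:39519695-39522685, plus strand) had 85.6, 118.7, 99.3 and 75.2 CPM in controls, a wide spread. Fitted log2 changes were negative in every group but the HDAC7 deletion (0.03), between -0.34 and -0.65 elsewhere, and none was called. The FNBP4 intron deletion, at 56.9, 58.6, 63.5 and 58.1, lay below all controls (-0.65, adjusted p = 0.137). The FNBP4 PTC exon deletion had 35.7, 77.3, 71.6 and 73.8 (-0.59, adjusted p = 0.0691). That value passed the threshold without replicate 2 of its hgRNA 3 (-0.87, 0.0101) or replicate 1 of control hgRNA 1 (-0.70, 0.0493). The DDX17 deletion had 48.9, 96.7, 56.5 and 53.9 (-0.61, 0.154) and passed without replicate 2 of hgRNA 1 (-0.84, 0.0429). Knockouts had 48.9 and 74.4, 55.6 and 72.0, 50.1 and 101, and 59.5 and 74.1, with replicate 1 the lower library each time. ASNS and PSAT1, textbook targets of ATF4, were called higher in 3 of those 4 knockouts, while DDIT3 and TRIB3, also textbook targets, were called higher in none. With all knockout libraries numbered 1 left out the ATF4 value in the FNBP4 knockout was 0.12 (adjusted p = 0.932), with the sign turned, and the other 3 stayed negative (-0.31 to -0.37).

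DDIT3 (CHOP), a pro-apoptotic factor of chronic stress (chr12:57516588-57521737, minus strand), had 7.15, 6.87, 8.79 and 8.36 CPM in controls. MARS overlaps it at one end on the other strand, and the libraries are stranded per the labels. The FNBP4 knockout had 3.58 and 3.39, below all controls (log2 change -1.15, SE 0.31, adjusted p = 0.0225). That call was lost without either of its libraries (-1.18, 0.175, and -1.11, 0.12) or replicate 1 of control hgRNA 2 (-1.13, 0.0543). In the DDX5, DDX17 and HDAC7 knockouts the libraries disagreed, at 4.72 and 9.29, 4.32 and 7.04, and 4.19 and 8.03. With all knockout libraries numbered 1 left out the DDIT3 values in the DDX5 and HDAC7 knockouts turned from -0.25 and -0.40 to 0.27 and 0.06, none of them called. In the FNBP4 PTC exon deletion DDIT3 had 3.48, 6.68, 7.24 and 4.99 (-0.51, 0.0875) and passed without replicate 2 of hgRNA 3 (-0.76, 0.0233). Values in the HNRNPD deletion were 6.49 and 4.62, and in the DDX5, DDX17, FNBP4 intron and HDAC7 deletions 5.32 to 8.87 with a median of 6.83, with no call.

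In the FNBP4 PTC exon deletion 5 regulators fell. PPP1R15A (GADD34), which directs dephosphorylation of eIF2, had 4.48, 8.77, 7.69 and 8.28 CPM against 13.6, 19.7, 16.6 and 12.0 (log2 change -1.08, SE 0.19, adjusted p = 0.000243). ATF5, a stress factor of the same family as ATF4, had 1.81, 2.80, 2.71 and 2.97 against 5.57, 10.9, 7.46 and 5.83 (-1.47, SE 0.27, 0.000417), 2.76-fold lower. TRIB3, a pseudokinase that restrains ATF4, had 1.47, 4.59, 2.27 and 3.66 against 6.78, 14.8, 10.3 and 5.23 (-1.58, SE 0.41, 0.00674). All of these libraries lay below all controls. CHAC1, which degrades glutathione, had 0, 0.561, 0.111 and 0.371 against 0.841, 2.11, 1.56 and 0.486, and ATF3, another stress factor, 0.253 ± 0.0332 against 0.722 ± 0.24 (-1.38, 0.0277). These last levels rest on few reads, and CHAC1 overlapped the controls. The median of the 8 regulators was -1.23 there. In none of the other 9 comparisons was a regulator other than DDIT4 or DDIT3 called.

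DDIT4 (REDD1), which restrains mTORC1, was uneven in controls at 32.8, 63.6, 40.2 and 29.6 CPM. It fell in the DDX5 deletion to 13.4, 9.86, 17.5 and 15.2 (log2 change -1.53, SE 0.31, adjusted p = 0.0014) and in the FNBP4 knockout to 13.7 and 13.9 (-1.52, SE 0.39, 0.0177), below all controls in both. The HNRNPD deletion had 81.0 and 62.7 and the FNBP4 PTC exon deletion 19.7, 53.8, 55.5 and 56.8, and neither was called.

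**Figure D3:**
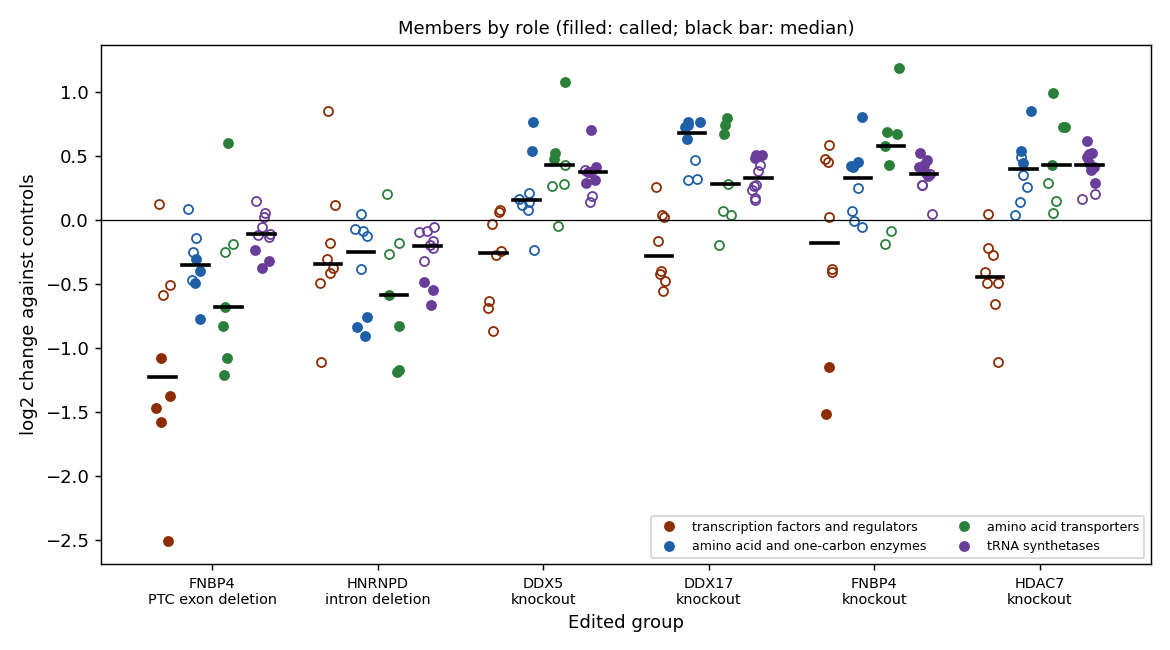
Log2 change against controls (vertical axis) of each tested gene by role (horizontal axis) in the FNBP4 PTC exon deletion, the HNRNPD deletion and the 4 knockouts. Filled points are called genes and black bars are medians, which for the 8 regulators stood at -1.23 in the FNBP4 PTC exon deletion and for the 10 synthetases at 0.33 to 0.43 in the knockouts.

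STC2, which is induced by stress in many cells, fell in the FNBP4 PTC exon deletion (548, 798, 759 and 829 CPM against 1046, 1044, 1083 and 1117, log2 change -0.57, adjusted p = 0.00266). In the knockouts its libraries split by number, at 779 to 888 in those numbered 1 and 1059 to 1179 in those numbered 2. VLDLR, a lipoprotein receptor, was the single gene called in the HDAC7 deletion, at 94.4, 104, 118.2 and 95.7 against 61.0, 67.3, 65.7 and 72.5 (0.63, SE 0.10, 0.000717), with no overlap. It was not called in a fit on only the libraries compared.

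Direct comparisons between edited groups did not take the controls as reference, although the control libraries stayed in the fit. The FNBP4 PTC exon and intron deletions differ in where the same gene was cut, and hgRNA 3 of the first shares a Cas9 guide with hgRNA 2 of the second. Of the 35 genes 15 were lower and 3 higher in the PTC exon deletion, where 14.3% and 16.4% of all genes were (30.7% in all), with a median of -0.25 beside 0.02. SLC7A5 stood at 89.9 ± 18.6 against 268 ± 17.03 CPM (SD, n = 4 each), a log2 difference of -1.60 (adjusted p = 6.25e-10). SLC3A2 differed by -1.30 (1.75e-09), SLC7A11 by -0.85 (4.94e-06), IARS by -0.54 (5.09e-06) and STC2 by -0.74 (0.000124). Higher in the PTC exon deletion were SLC38A2 (0.78, 2.25e-06), VLDLR (0.50, 0.000364) and DDIT4 (1.09, 0.00626), the last with overlap.

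The FNBP4 PTC exon deletion and the FNBP4 knockout lay at the opposite ends for SLC7A5. This comparison was chosen after seeing the data. Of the 35 genes 22 were lower in the deletion and 2 higher (15.3% and 15.5% of all genes, 30.7% in all), with a median of -0.70 beside 0.01. SLC7A5 differed by -2.39 on the log2 scale (SE 0.14, adjusted p = 3.73e-11), 5.24-fold lower in the deletion. SLC3A2 differed by -1.66 (9.36e-10), MTHFD2 by -1.21, PSAT1 by -1.18 and SLC7A1 by -1.10. PPP1R15A, at 7.30 in the deletion and 21.1 in the knockout, differed by -1.55 (9.07e-06). DDIT4 and SLC38A2 were the ones higher in the deletion, by 1.64 (0.00283) and 0.79 (2.64e-05). FNBP4 RNA itself was above controls in the deletion, as given above, and not called in the knockout.

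Between the DDX5 deletion and knockout 3 of the 35 genes were lower in the deletion and none higher (2.65% and 1.75% of all genes, 4.4% in all). A fit on only the libraries compared had 9 lower. With 2 knockout libraries the lack of a call does not show that the groups are alike. SLC7A5 stood at 275 against 434 CPM (log2 difference -0.65, adjusted p = 0.00834), VLDLR at 59.2 ± 4.69 against 82.7 ± 0.537 (-0.48, 0.0187) and SHMT2 at 182 against 262 (-0.51, 0.0319). Without replicate 1 of the knockout the SLC7A5 difference was -0.49 (0.313), and with all knockout libraries numbered 1 left out no gene was called.

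The 4 knockouts were also set against the 11 deletion hgRNAs as a whole, a comparison chosen after seeing the data. Here 24 of 35 genes were higher and 1 lower, where 14.6% and 14.3% of all genes were (28.9% in all), with a median of 0.32 beside -0.00. All 10 synthetases were higher, with a median of 0.30. SLC7A5 differed by 0.91 (391 ± 74.1 against 224 ± 82.1 CPM, SD, n = 8 and 22, adjusted p = 3.22e-09), MTHFD2 by 0.80 (2.18e-08), PSAT1 by 0.73 and ASNS by 0.69 (1.41e-08). The SDs pool different hgRNAs and edited genes, whereas the p-values rest only on the spread between libraries of the same hgRNA. Replicate differences of the knockouts correlated with each other at 0.55 to 0.837. The fit takes the knockout libraries as independent, so these p-values do not allow for that correlation. For MTHFD2, YARS and SLC1A5 every knockout library was above every deletion library. With the knockout libraries numbered 1 left out 16 genes were called, and SLC7A5 differed by 0.80 (1.45e-05).

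Counted by library, the 4 knockouts gave similar numbers. In the DDX5 knockout 20 of 35 genes were above all 4 controls in each library, where 33.8% and 27.3% of all genes were. In the DDX17 knockout there were 24 and 23 (30.2% and 27.1%), in the FNBP4 knockout 19 and 21 (34.7% and 27.8%) and in the HDAC7 knockout 22 and 21 (31% and 30.3%). For synthetases it was 10 of 10 in all knockout libraries but those of FNBP4, which had 9. Median log2 differences from the control mean were 0.29 to 0.34 in libraries numbered 1 and 0.18 to 0.29 in those numbered 2.

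**Figure D4:**
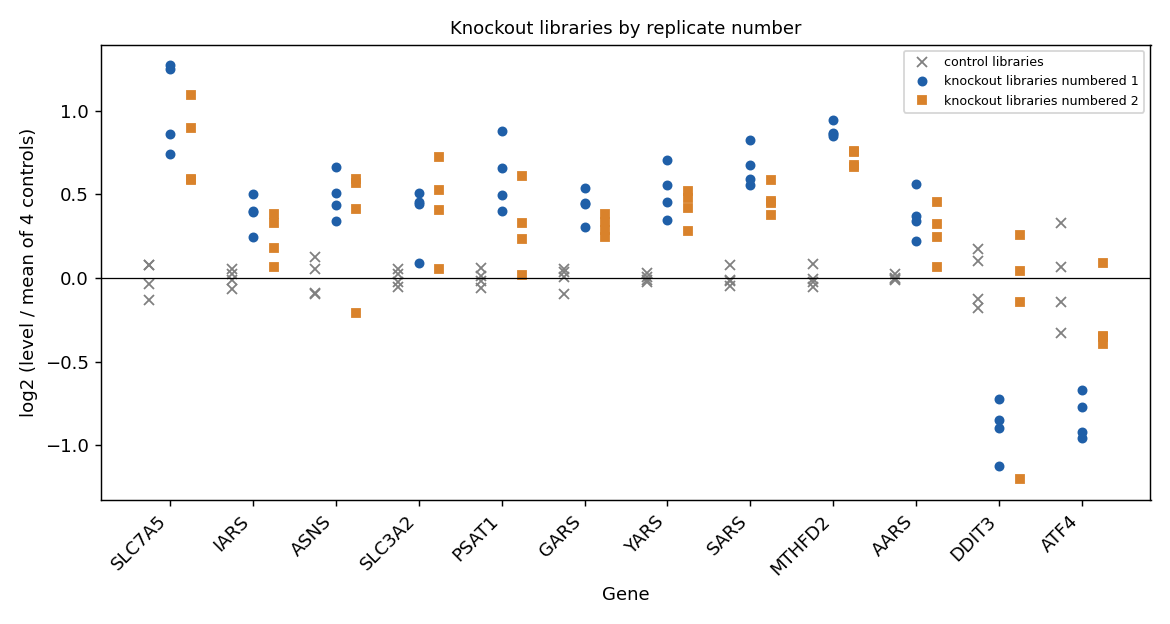
Log2 ratio of each library's level to the mean of the 4 controls (vertical axis) for 12 of the genes (horizontal axis) in the knockouts. Crosses are control libraries, blue circles knockout libraries numbered 1 and orange squares those numbered 2. For MTHFD2, YARS and SARS every knockout library lies above the crosses, whereas ATF4 and DDIT3 do not.

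The untested genes could be read only from the authors' deposited table, which combines replicates. MARS, the methionine synthetase, had log2 fold changes of -0.54 and -0.52 for FNBP4 PTC exon hgRNAs 3 and 4 and -0.53 for HNRNPD in the authors' deposited table, with FDR of 4.112e-05, 0.0001389 and 0.0001483. For the DDX5, DDX17, FNBP4 and HDAC7 knockouts the authors' deposited table gave MARS 0.43, 0.40, 0.41 and 0.42, each with an FDR below 0.05. CEBPB, a partner of ATF4 on DNA, was at -0.94 and -0.89 in the DDX5 deletion hgRNAs in the authors' deposited table (FDR 0.000209 and 0.000808). CBS, of transsulfuration, was at -0.41 and -0.52 for FNBP4 PTC exon hgRNAs 3 and 4 in the authors' deposited table, and at 0.57, 0.57 and 0.50 for HDAC7 PTC exon hgRNA 1 and the DDX17 and HDAC7 knockouts, all with an FDR below 0.05. CBS is uncertain because a near-identical copy, CBSL, exists. Over all 39 genes the authors' deposited table had, at an FDR under 0.05, 17 lower and 1 higher for FNBP4 PTC exon hgRNA 3 (14.5% of all its genes were called in either direction), 15 and 1 for hgRNA 4 (7.57%) and 13 and 1 for HNRNPD (5.1%). For the knockouts the authors' deposited table had 10 higher and none lower in DDX5 (6.19%), 14 and none in DDX17 (1.49%), and 16 and 1 in each of FNBP4 (6.81%) and HDAC7 (4.26%).

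Other genes of the pathway were counted in fixed lists, beside 5.89%, 0.762%, 4.54% and 3.43% of all genes higher in the DDX5, DDX17, FNBP4 and HDAC7 knockouts. The shares of all genes called higher and lower were 13.9% and 13% in the FNBP4 PTC exon deletion, 4.55% and 4.32% in HNRNPD, and 7.22% and 9.68% in the DDX5 deletion. Of 9 further cytosolic synthetases 3, 0, 3 and 2 rose in the DDX5, DDX17, FNBP4 and HDAC7 knockouts, with HARS at 0.51 in DDX5 and 0.45 in FNBP4, and FARSB and LARS rose in the DDX5 deletion (0.35 and 0.33). In the FNBP4 PTC exon deletion VARS fell (-0.59) and DARS rose (0.42). Of 16 mitochondrial synthetases CARS2 alone was called in the knockouts, higher in DDX5, FNBP4 and HDAC7 (0.59, 0.48 and 0.53), a share near that of all genes. Of 13 genes for eIF2, its kinases and its exchange factor 1, 0, 3 and 2 rose in the knockouts, the first near the share of all genes, and EIF2S1 and EIF2B3 fell in HNRNPD (-0.61 and -0.41).

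Among 20 further ATF4 pathway genes tested, 5 rose and 6 fell in the FNBP4 PTC exon deletion, where 13.9% and 13% of all genes did. SESN2, an amino acid sensor of mTORC1, fell (-1.09, adjusted p = 1.7e-06), as did the transporter SLC7A6 (-0.79), while VEGFA, an angiogenic factor, rose there (0.54). VEGFA also rose in HNRNPD (0.83) and fell in the FNBP4 knockout (-0.89). PYCR1 and ALDH18A1, which make proline from glutamate, were called higher in all 4 knockouts, PYCR1 by 0.65, 0.71, 0.78 and 0.81 and ALDH18A1 by 0.56, 0.50, 0.66 and 0.58 in the order DDX5, DDX17, FNBP4 and HDAC7. Of 14 genes of the endoplasmic reticulum stress response, 4, 2, 4 and 2 rose in the knockouts and 5 in the FNBP4 PTC exon deletion. HSPA5 (BiP), the luminal chaperone, rose in the knockouts by 0.62, 0.40, 0.68 and 0.54 and in the FNBP4 PTC exon deletion by 0.37. The chaperone therefore rose both where the transporters rose and where they fell. Of 8 cytosolic folate genes the single call in the knockouts was ATIC in FNBP4 (0.52), while the mitochondrial enzyme MTHFD2 rose in all 4.

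How closely the genes moved together was described over the 17 group means, which share depth, scaling and libraries, with no test. The median pairwise Pearson correlation was 0.71 among synthetases, 0.70 among transporters, 0.67 among enzymes and 0.41 among regulators. Between regulators and synthetases it was 0.17, and over all 595 pairs 0.45. SLC3A2 (0.93), SLC7A1, IARS and GARS (0.89 each) were most like SLC7A5, SLC38A2 was most unlike it (-0.80), and ATF4 had a correlation of 0.01 with it. TRIB3 (0.73), CHAC1 (0.59) and PCK2 (0.58) were most like ATF4.

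Splicing within the genes was the second readout. Of 213815 events with 20 reads in every library, 1149 lay in 34 of the genes, 287 of them introns. None of the 1149 passed both an adjusted p of 0.05 and a shift of 10 percentage points in any of the 10 comparisons, where 0% to 0.0285% of all events did. At an unadjusted p under 0.05 there were 58 in the FNBP4 intron deletion and up to 219 in the FNBP4 PTC exon deletion. On the adjusted p alone 25 passed in the FNBP4 PTC exon deletion and 6 in the DDX5 deletion, with differences under 10 points. The shares of all events at these looser limits were not computed. The counts there are thus no result about these genes. The following were chosen after their values were seen. Retention of the DDIT4 intron at chr10:72274061-72274156 was 1.38 ± 0.80% in the FNBP4 knockout against 8.18 ± 1.42% in controls (SD, n = 2 and 4, adjusted p = 0.0484). The lowest control had 6.41%. All DDX5 deletion libraries (1.98% to 5.23%) and those of the DDX5 (4.24% and 6.02%) and HDAC7 knockouts (2.45% and 5.88%) were also below it. For a cassette in MTHFD2 at chr2:74201382-74201479 no exon of GENCODE v29 had the same start and end. Its inclusion was 35.3 ± 0.95% in the HDAC7 knockout against 13.8 ± 3.16% (0.0552). The same cassette was at 25.5 ± 6.11% in the FNBP4 PTC exon deletion (n = 4, adjusted p = 0.102), with a highest library of 33.9%. Replicate 1 of HDAC7 deletion hgRNA 2 had 33.3%. A coding-transcript exon of WARS at chr14:100374136-100374244 was at 51.5 ± 10.2% in the HDAC7 knockout against 25.3 ± 5.46% (0.122), and at 45.8 ± 4.63% in the FNBP4 knockout (0.243), whose libraries, at 42.5% and 49.1%, were also above all controls.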

How the data were processed

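Per the file headers, the deposited vast-tools table gives the percent inclusion or retention of each of 721536 events per library with a quality string that holds reads, from which whole junction counts were taken. Intron positions of the genes matched GENCODE v29 on GRCh38 (394 of 394), which was used for coordinates. The authors' deposited expression table holds RPKM per hgRNA, log2 fold changes against pooled controls and p-values adjusted as false discovery rates. The submitters' processing notes name Salmon 1.10 and edgeR (version not given); the aligner is not given in the sources used here. Columns of 2 further libraries, not in the sample list, were not used.

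Spliced-junction reads were summed per gene. Genes were kept (12081) where 2 libraries reached a count of 10, scaled to the median depth, and the total over libraries reached 15. TMM factors were computed, and limma 3.58.1 (voom, R 4.3.3) was fitted with a coefficient per hgRNA group, with 5.83 prior and 17 residual degrees of freedom. An edited group's change is the average over its hgRNAs less the average over both controls. Duplicates are biological per the labels, but the labels do not say whether they are separate transductions. Splicing was tested with limma on log2 ratios of inclusion and exclusion reads, each plus 1. Python 3.11.15, numpy 2.4.6, pandas 2.3.3 and matplotlib 3.10.9 were used. The steps were tested on simulated data.

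The genes, lists and tests were chosen with earlier results of these data known. Values by library are given, in many groups but not all, for the 10 genes called most often and for ATF4 and DDIT3. Up to 6 further called genes per comparison and up to 4 called genes of each other list are named. Promoters were to be printed for up to 4 genes. Instead 30 bases around every match are given. Alternatives were the scaling, the filter, GC content and length, the replicate block, each control hgRNA alone, leaving out each library, and a fit on only the libraries compared.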

Additional observations from a re-analysis of the deposited data

Results flagged for a closer look

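Among 72 sets of 4 libraries of one edit or of the controls (12 genes in 6 sets), 9 held a library far from the other 3, by Dixon's 95% critical value for the gap over the range; chance alone gives about 1 set in 20. Of these, 4 lay in replicate 1 of FNBP4 PTC exon deletion hgRNA 3. There GARS had 382 CPM (others 304.5 to 304.8), MTHFD2 had 124 (others 73.7 to 76.7), AARS had 239.8 (others 257 to 259) and ATF4 had 35.7 (others 71.6 to 77.3). Another 3 lay in replicate 2 of DDX17 PTC exon deletion hgRNA 1, where SLC3A2 had 338 (others 239.6 to 256), YARS had 255 (others 199 to 203) and ATF4 had 96.7 (others 48.9 to 56.5). ATF4 stood at 146 in replicate 2 of HDAC7 PTC exon deletion hgRNA 1 (others 75.8 to 86.8). Replicate 2 of FNBP4 PTC exon deletion hgRNA 3 had 29.3 for ASNS (others 30.5 to 30.6), a small gap. The libraries named for GARS, SLC3A2 and the value of 146 are among the 4 that stood apart over all genes.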

How the results depend on the processing

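No called value of a named gene changed sign under any alternative. Of 2135 alternative values 30 did change sign (18 of ATF4, 12 of DDIT3), none of them called before or after. With median-of-ratios scaling or limma-trend all 114 values of named genes kept their side of the threshold, and with no filter 113 of 114 did. Counts of called genes moved past 1.5 times as follows. With trends on GC content and length removed the FNBP4 intron deletion had 5 and the HDAC7 deletion 5. With a replicate block they had 2 and 3. The block moved no other count that far and changed 1 of 114 gene values. Calls were lost for 25 of 78 values against control hgRNA 2 alone, 16 of 78 against hgRNA 1 alone, 30 of 114 on only the libraries compared, 8 of 114 with GC and length trends removed and 25 of 69 without knockout libraries numbered 1. Over 136 pairs of groups 44 replicate differences correlated above 0.1 (median -0.026), so numbers did not pair the samples across all groups, although knockout pairs reached 0.55 to 0.837. Against control hgRNA 1 alone the counts were DDX17 deletion 2, DDX5 knockout 6, DDX17 knockout 7 and FNBP4 knockout 11. Against control hgRNA 2 alone they were DDX5 deletion 1, DDX17 deletion 1, FNBP4 intron deletion 0, DDX5 knockout 5, FNBP4 knockout 9 and HDAC7 knockout 7. Fitted on only the libraries compared, with fewer samples, they were DDX5 deletion 19, DDX17 deletion 0, FNBP4 intron deletion 7, HDAC7 deletion 0, DDX5 knockout 4, DDX17 knockout 2, FNBP4 knockout 7, HDAC7 knockout 5 and DDX5 deletion against knockout 9.

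The following were added after seeing the data. Without the 4 libraries that stood apart the counts were DDX5 deletion 14, DDX17 deletion 7, FNBP4 intron deletion 4, HDAC7 deletion 4 and DDX5 knockout 16. Without knockout libraries numbered 1 they were 2, 5, 4 and 2 for the DDX5, DDX17, FNBP4 and HDAC7 knockouts, 0 for the DDX5 deletion against knockout and 16 for all knockouts against deletions. Without those numbered 2 the DDX5 deletion against knockout had 7. The cause of these differences was not tested.

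Leaving out each library in turn gave 3 to 9 called genes in the DDX5 deletion, 1 to 6 in the DDX17 deletion, 1 to 5 in the FNBP4 intron deletion, 14 to 21 in the FNBP4 PTC exon deletion, 1 to 7 in the HDAC7 deletion and 7 to 9 in HNRNPD. It gave 1 to 9, 0 to 9, 4 to 13 and 0 to 13 in the DDX5, DDX17, FNBP4 and HDAC7 knockouts. It gave 14 to 18 between both FNBP4 deletions, 0 to 2 between DDX5 deletion and knockout, 22 to 26 between knockouts and deletions, and 21 to 25 between FNBP4 PTC exon deletion and knockout. For splicing a pseudocount of 5 called 3 events and leaving out libraries 0 to 2. Of 1046 values of named genes with a library left out, 131 lost their call and 7 gained one. Depth limited CHAC1 and ATF3, which had levels near or under 1 CPM.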
